A study of Mus musculus with 2 samples.

Results

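The small heat shock proteins examined here were Hspb1, Hspb2, Hspb3, Hspb6, Hspb7, Hspb8 and Cryab, 7 genes of 1 family. They were followed through every probe set whose platform annotation names exactly 1 of them. There were 8 such probe sets among the 41345 on the array. Cryab and Hspb1 had 2 each, and Hspb3, Hspb6, Hspb7 and Hspb8 had 1 each. Hspb2 had none of its own, because the probe set that names it also names Cryab, its neighbour on the chromosome.

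The RNA came from colons of healthy male mice of the outbred ICR stock, 7 weeks old. The mice of the psyllium group ate for 5 days a diet containing 10% psyllium, a gel-forming fibre from seed husks, and those of the control group ate the diet without it for the same time. Each diet was represented by 1 array. The number of mice behind an array, the stretch of colon taken and whether its muscle coat was kept are not in the labels. With 1 array a group nothing could be tested, so errors and p-values are absent throughout. Every difference below is log2 psyllium minus log2 control, and describes these 2 arrays only.

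Small heat shock proteins are compact chaperones that share an alpha-crystallin domain and assemble into oligomers. They bind unfolding proteins without using ATP and hold them for refolding by the Hsp70 system or for disposal. Several are abundant in muscle, where they attach to actin, desmin filaments and the anchoring structures of the contractile apparatus. In smooth muscle, Hspb1 and Hspb6 are substrates of kinases that control contraction and relaxation.

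The regulatory sequence in front of these genes is shown because the best known inducer of the family, heat shock factor 1, binds inverted repeats of the unit GAA. RefSeq promoter windows of GRCm38.p6, 250 bases before to 50 after a transcription start, were found for 5 of the 7 genes, 6 windows in all. Hspb2 and Cryab had no entry. The motif GAANNTTC, which reads the same on both strands, occurred in 4 of the 6 windows, those of Hspb1, Hspb3, Hspb8 and 1 of the 2 of Hspb6. Of all 32851 RefSeq windows, 7.86% hold it. The opposite arrangement TTCNNGAA occurred in none of the 6, against 8.52% of all windows, and the CArG box, the site of serum response factor in muscle genes, in none, against 1.63%. No match overlapped a match of another motif, and a match describes letters in a window, not a bound site. In the lines below capitals mark GAANNTTC. The Hspb1 and Hspb7 lines give the 250 bases before the start, chr5:135887669-135887918 and chr4:141420529-141420778, both on the plus strand. They are shown whole as the member with 2 matches and a member with none. The other lines give 30 bases around each match, at chr7:30553170-30553199 on the plus strand for Hspb6, and on the minus strand at chr5:116422844-116422873 for Hspb8 and chr13:113663882-113663911 for Hspb3.
Hspb1: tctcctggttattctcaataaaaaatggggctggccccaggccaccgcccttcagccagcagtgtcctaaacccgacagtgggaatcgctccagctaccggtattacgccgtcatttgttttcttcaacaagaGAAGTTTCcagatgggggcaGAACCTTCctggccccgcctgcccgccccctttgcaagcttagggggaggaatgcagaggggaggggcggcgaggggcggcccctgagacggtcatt
Hspb7: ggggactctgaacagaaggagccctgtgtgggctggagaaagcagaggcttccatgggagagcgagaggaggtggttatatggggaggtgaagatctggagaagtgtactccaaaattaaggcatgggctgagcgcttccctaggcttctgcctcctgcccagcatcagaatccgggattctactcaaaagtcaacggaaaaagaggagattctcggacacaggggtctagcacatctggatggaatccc
Hspb6: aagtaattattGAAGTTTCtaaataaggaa
Hspb8: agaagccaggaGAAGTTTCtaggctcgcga
Hspb3: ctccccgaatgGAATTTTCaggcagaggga
The same 8 letters, GAAGTTTC, made up 1 of the 2 matches of Hspb1 and the match of Hspb6 and of Hspb8. They began 117 bases before the start of Hspb1 and 120 bases before that of Hspb6, and in Hspb8 2 bases after the first transcribed base. The second match of Hspb1, GAACCTTC, began 97 bases before the start, and that of Hspb3, GAATTTTC, 224 bases before it.

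In the psyllium colon 5 of the 8 member probe sets were higher by 1.5-fold or more, and none was as much lower. The background over all 23521 probe sets naming 1 gene was 3.43% higher and 2.8% lower by that measure. The members were chosen with earlier results of these data known, so their count beside that share is a description only. Each of the 5 belonged to a different gene, Hspb1, Hspb6, Hspb7, Hspb8 and Cryab. None reached 2-fold, which 0.659% of the 23521 did. A filter on dim probe sets kept those whose brighter array was at or above an intensity of 67.3, the median of that quantity. The same 5 passed it, on both arrays alike, and the other 3 were below it on both. Past the filter 4.07% of 11761 probe sets were 1.5-fold higher and 2.42% lower. The median difference over all 8 member probe sets was 0.68, against -0.04 over the probe sets past the filter. For 345 genes with more than 1 probe set past the filter, the differences of the brightest 2 disagreed by a median of 0.17. That gap measures agreement on the same RNA and not between animals.

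**Figure D1:**
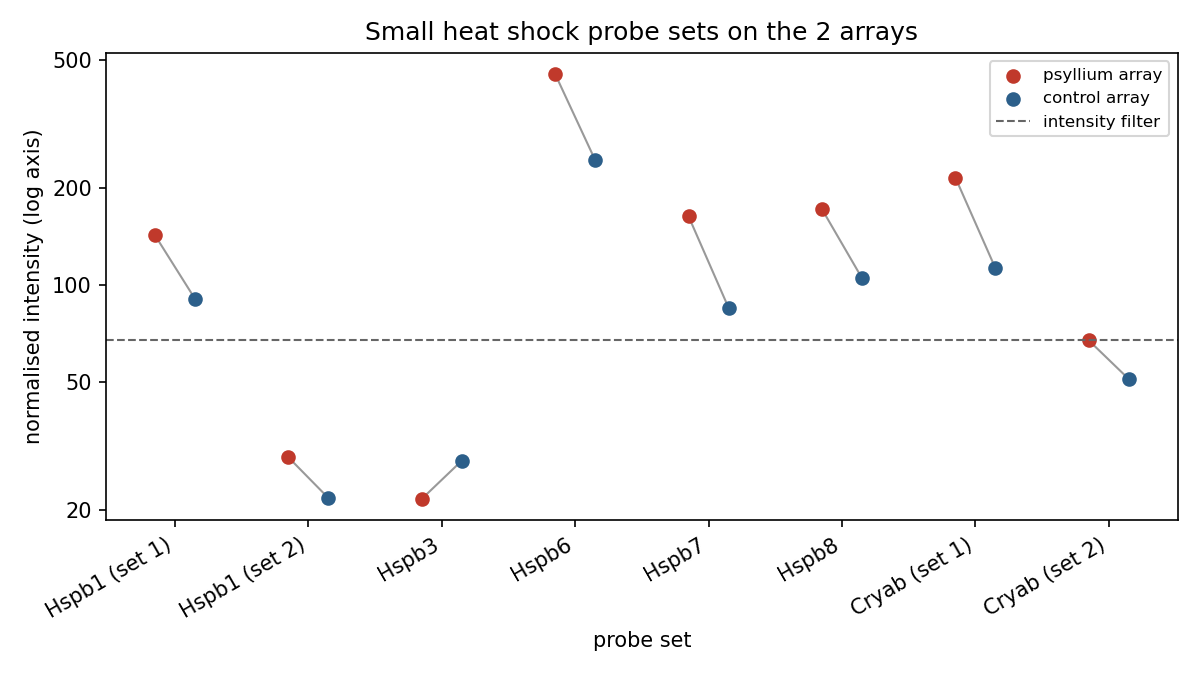
Normalised intensity (log axis) of the 8 small heat shock probe sets on the psyllium array (left point of each pair) and the control array (right point), 1 array each, with the dim-probe filter of 67.3 as a dashed line. Of the 8 pairs 7 slope down from psyllium to control, the pair of Hspb3 slopes the other way, and 3 pairs lie below the line.

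The 3 largest differences were those of Hspb7, Cryab and Hspb6. Hspb6, also called Hsp20, is abundant in smooth, cardiac and skeletal muscle and is a substrate of cyclic nucleotide-dependent kinases during relaxation. Its intensity was 451 on the psyllium array, against 244 on the control array. This was a 1.85-fold higher value, a difference of 0.89, and 1.56% of the probe sets past the filter had a larger one. Hspb7, first described as a cardiovascular heat shock protein and abundant in heart and skeletal muscle, read 163 on the psyllium array, against 84.8 on the control array. At 1.92-fold and a difference of 0.94 it had the largest difference of the family, exceeded by 1.23% of probe sets past the filter.

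Cryab, alpha-B crystallin, is a major protein of the lens that is also abundant in heart and other muscle and chaperones desmin. Its brighter probe set read 215 on the psyllium array, against 113 on the control array, 1.91-fold higher with a difference of 0.93. Its second probe set read 67.2 on the psyllium array, against 51.0 on the control array, 1.32-fold higher with a difference of 0.40. That probe set lay just under the filter of 67.3 on the psyllium array, so its smaller difference rests on dim values. Both probe sets were higher on the psyllium array, and the mean over both put Cryab 0.33 below the smooth muscle median described further on. Differences among Hspb6, Hspb7 and the brighter Cryab set spanned 0.06, less than the 0.17 by which probe sets of 1 gene commonly disagree.

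Hspb8 and Hspb1 followed, with smaller differences past 1.5-fold. Hspb8, which forms a complex with the co-chaperone Bag3 in the removal of damaged filament proteins, read 172 on the psyllium array, against 105 on the control array. It was 1.64-fold higher, a difference of 0.71. Hspb1, called Hsp25 in the mouse, is an actin-regulating chaperone phosphorylated downstream of p38 kinase. Its brighter probe set read 142 on the psyllium array, against 90.4 on the control array. It was 1.58-fold higher, a difference of 0.66, and was the lowest of the 5 past the call. Adding 16 to the intensities before log2 took this difference to 0.57, below 1.5-fold. The second Hspb1 probe set read 29.2 on the psyllium array, against 21.8 on the control array, a difference of 0.42 between dim values. Hspb8 and the brighter Hspb1 set differed from each other by 0.06, and Hspb6 exceeded Hspb8 by 0.18. The 5 past the call spanned 0.29. The gap between probe sets of 1 gene had a median of 0.17 and a 90th percentile of 0.46. A span over 5 probe sets picked for being higher is not the same measure as that gap.

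Hspb3 was dim and Hspb2 had no probe set of its own. Hspb3, a muscle protein that assembles with Hspb2, read 21.7 on the psyllium array, against 28.5 on the control array. It was the 1 member probe set with a negative difference, -0.39, and its intensity lay far under the filter on both arrays. Hspb2, the binding partner of myotonic dystrophy kinase, could not be measured alone. The probe set naming Hspb2 and Cryab read 75.3 on the psyllium array, against 63.8 on the control array, 1.18-fold higher, and cannot be assigned to either gene.

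Smooth muscle genes were higher on the same arrays. In this list 18 of 21 passed 1.5-fold upward and none downward, and the median difference was 0.997. Over all 22180 genes, each by its brightest probe set, 3.42% were 1.5-fold higher and 2.8% lower. The list was chosen with earlier results of these data known, so its count beside that share is a description only. The summed intensity of the list was 40645 on the psyllium array, against 18147 on the control array. Actg2, the enteric smooth muscle actin, differed by 2.14, the intermediate filament genes Synm and Des by 1.88 and 1.79, and the actin-binding Cald1 by 1.70. The 3 genes short of 1.5-fold were Mylk (0.58), Vcl (0.55) and Hdac8, which had a negative difference (-0.33). The part of smooth muscle content in the values of the family was not tested, and in bulk RNA more cells of a type and more RNA per cell cannot be told apart.

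None of the 8 member probe sets exceeded the smooth muscle median. Hspb7 lay 0.05 below it, the brighter Cryab set 0.06 below and Hspb6 0.11 below. Hspb8 lay 0.29 below and the brighter Hspb1 set 0.34 below. Of the 21 genes 13 had a larger difference than Hspb6, Hspb7 or Cryab, 16 a larger one than Hspb8 and 17 a larger one than Hspb1. By nearness in difference over the 2 arrays, the smooth muscle gene most like Hspb7 and Cryab was the myosin light chain gene Myl9 (0.99). For Hspb6 it was the actin crosslinker Actn1 (0.84), and for Hspb8 and Hspb1 the leiomodin Lmod1 (0.66). Nearness of 1 difference over 2 arrays is a weak likeness. Genes of other lists could lie nearer, as the goblet cell gene Spdef (0.93) did to Cryab.

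Pan-epithelial genes had negative differences. All 18 pan-epithelial genes, which mark the lining of the labelled tissue, passed the filter. All 18 were below 0, the median was -0.28 and none was past 1.5-fold, though the junction gene Cldn4 (-0.57) passed it under median centring. Their summed intensity on the psyllium array was 0.862 times that on the control array. Lgals4, a galectin of the gut lining, and Krt8, a keratin of simple epithelia, differed by -0.18 and -0.03. The highest of the list was Krt18 at -0.01, the epithelial gene nearest to the 5 members past 1.5-fold. Those 5 were picked for being higher, so their distance from the list is built in in part. The dim Hspb3 (-0.39) lay below 12 of the 18. The median of 12 absorptive colonocyte genes was -0.55, and 6 of them passed 1.5-fold, all downward. Among them were the water channel Aqp8 (-2.60), Clca4a (-2.08), carbonic anhydrase Car4 (-1.42) and the cytochrome Cyp2c55 (-1.03). Aqp8 was below the filter on the psyllium array (50.5), so the size of its difference is uncertain. Second probe sets of Clca4a, dim, and of Cyp2c55, past the filter, differed by -0.18 and -0.14. Goblet cell genes had a median of 0.24, with Spdef (0.93) and Agr2 (0.59) the 2 of 9 past 1.5-fold. Agr2 lost that call under median centring.

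**Figure D2:**
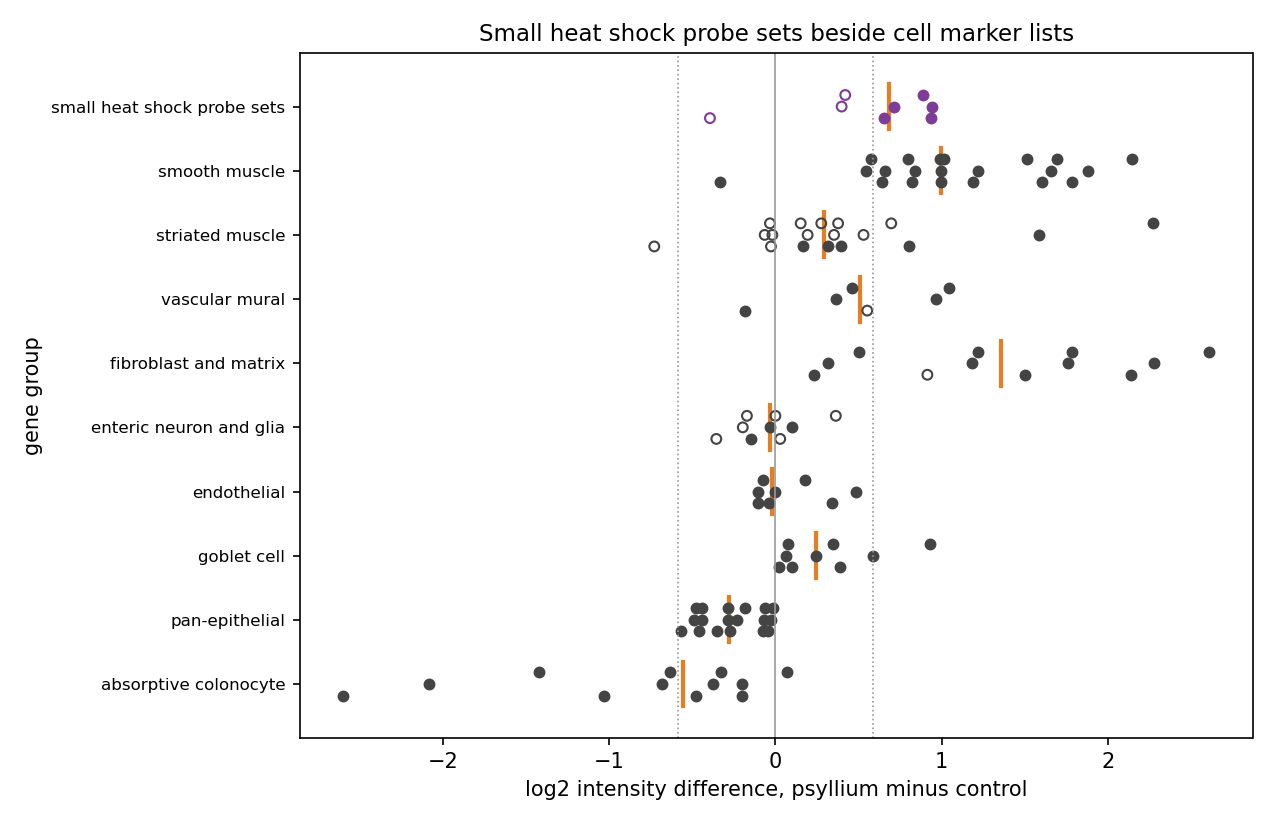
Log2 intensity difference, psyllium minus control, for the 8 small heat shock probe sets (top row) and for the genes of 9 marker lists, 1 point each. Filled points pass the intensity filter, open points do not, orange bars are medians (0.68 for the family, 0.997 for smooth muscle, -0.28 for pan-epithelial genes), and dotted lines mark 1.5-fold. The 5 filled family points lie among the smooth muscle genes and to the right of every pan-epithelial gene. The open point of Hspb3 lies to the left of 12 of the 18 pan-epithelial genes. Genes of other lists lie in the same span, such as the goblet cell gene Spdef (0.93) and the striated muscle gene Ckm (0.80).

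Genes typical of striated muscle, where Hspb3 and Hspb7 are also at home, were mostly dim. Only 6 of 18 such genes passed the filter. By 1.5-fold 4 of the 18 were higher and 1 was lower, and the median was 0.29, or 0.60 on those past the filter. Only 3 of these calls passed the filter, and those of Myh4 (0.70) and, downward, Pvalb (-0.73) rest on dim values. Tnnc2, Tnnt3 and Tnnt2 passed the filter and differed by 0.40, 0.31 and 0.17. Actc1 differed by 2.27, from an intensity on the control array (51.8) below the filter, Acta1 by 1.59 and the creatine kinase Ckm by 0.80. The second Ckm probe set was dim and differed by 0.01. Actin transcripts are alike in sequence, so values of Actc1 and Acta1 are uncertain where probes bind the more abundant smooth muscle actins. The skeletal myosin genes Myh1, Myh2 and Myh4 and the cardiac Myh6 were below the filter on both arrays.

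Markers of other cells in the wall gave medians from -0.03 to 1.36. Fibroblast and matrix genes had the highest, with 9 of 12 past 1.5-fold upward. Fn1 differed by 2.61, Mfap5 by 2.28, Lum by 2.14 and Col3a1 by 1.78. The control value of Mfap5 (42.0) was below the filter, so its size is uncertain. Their summed intensity was 12406 on the psyllium array, against 4535 on the control array, and their part in the values of the family was not tested either. Vascular mural genes had a median of 0.51, with Cspg4 (1.05) and Kcnj8 (0.96) the 2 of 6 past 1.5-fold. Abcc9, Rgs5 and Pdgfrb also passed the filter and differed by 0.46, 0.36 and -0.19, and Notch3 was dim. Enteric neuron and glia genes, relevant because glia elsewhere in the nervous system express Cryab, had a median of -0.03. None of the 9 was past 1.5-fold, and Ret and Uchl1 differed by -0.15 and -0.03. Only 3 of the 9 passed the filter. The glial genes S100b, Sox10 and Gfap and the neuronal genes Elavl4, Tubb3 and Nefm were below it on both arrays. The median of 8 endothelial genes was -0.02, none was past 1.5-fold, and Cdh5 and Pecam1 at 0.18 and 0.34. None of 3 pacemaker cell genes, with a median of 0.38, was past 1.5-fold. Kit differed by 0.38, Ano1 by 0.56 and Etv1, by its brighter probe set, by -0.21. Ano1 passed 1.5-fold under quantile normalisation and trend removal. Adipocyte genes had a median of 0.18 and of -0.09 on the 2 of 6 past the filter, Fabp4 (0.26) and Cidec (-0.44). Macrophage genes had a median of 0.45, with Mrc1 (1.22) and Cd163 (0.78) the 2 of 7 past 1.5-fold. Cd163 was below the filter on the control array (54.5).

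The genes that small heat shock proteins work with were examined in 5 lists. Among 7 measured partners in chaperone-assisted autophagy, the route by which Bag3 and Hspb8 clear damaged filamin, 3 were higher by 1.5-fold or more. Their median of 0.11 turned to -0.03 when all probe sets of a gene were averaged. These were the clients Flna (1.33) and Flnc (1.24) and the adaptor Synpo2 (1.19), which is also in the smooth muscle list. The other 4 were all under 1.5-fold. Bag3, the scaffold that holds Hspb8, read 243 on the psyllium array, against 257 on the control array, a difference of -0.08. Hspa8, the Hsp70 of the complex, differed by 0.11 by its brightest probe set. Its other probe sets, all past the filter, differed by -0.04, -0.09 and -0.09. The cargo receptor Sqstm1 differed by -0.23 and the autophagosome gene Map1lc3b by -0.14.

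Filament and anchoring genes, listed as known or possible clients of the family, were higher wherever they were bright, apart from Ldb3. By 1.5-fold 6 of 11 such genes were higher and none was lower, and the median was 1.20. They were Synm, Des, Flnc, Csrp1 (1.24), Vim (1.24) and Pdlim3 (1.20), of which Synm and Des also stand in the smooth muscle list and Flnc among the autophagy partners. Ldb3 passed the filter and differed by 0.06. The sarcomeric genes Myot, Nebl, Ttn and Actn2 were below the filter on both arrays, and the deposited values of Myot and Nebl were identical on the arrays.

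Kinases that phosphorylate or bind the family gave 2 genes past 1.5-fold of 8, with a median of 0.18. Dmpk, the myotonic dystrophy kinase bound by Hspb2, read 642 on the psyllium array, against 332 on the control array, 1.93-fold higher with a difference of 0.95. Prkg1, the cGMP-dependent kinase of smooth muscle relaxation, read 158 on the psyllium array, against 104 on the control array, 1.52-fold higher with a difference of 0.61. Prkg1 fell short of 1.5-fold under median centring and with 16 added before log2. The p38 route to Hspb1 stayed under 1.5-fold, with Mapk14 at 0.27, Mapkapk2 at 0.34, Mapkapk3 at -0.29 and Mapkapk5 at -0.21. Prkaca, a catalytic subunit of protein kinase A, differed by -0.0025, and Prkd1 was dim.

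Chaperones, many of which heat shock factor 1 controls as it does Hspb1 and Cryab, were listed together with the heat shock factors. None of the 11 measured genes of that list, 10 chaperone genes and Hsf2, was 1.5-fold higher or lower, all 11 passed the filter, and their median was 0.03. Their summed intensity on the psyllium array was 0.9996 times that on the control array. Hspa4 and Hspd1 differed by 0.03 and -0.25. The heat-inducible Hsp70 genes Hspa1a and Hspa1b differed by 0.12 and -0.01, and their co-chaperone Dnajb1 by -0.24. Hsp90aa1 had the highest difference of the list, 0.29. Hsf1 itself and the chaperones Hsp90ab1 and Dnaja1 had no probe set naming them alone here. The factor Hsf2, related to Hsf1, differed by 0.14.

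The 4 genes listed as relatives outside the member list were all under 1.5-fold, with a median of -0.10. Cryaa, the lens partner of Cryab, differed by 0.08 by its brighter probe set and Hspb9, a testis gene, by -0.01, both below the filter. Hspb11, an intraflagellar transport gene, differed by -0.20. Odf1, a sperm tail gene, read 1282 on the psyllium array, against 1536 on the control array, a difference of -0.26. Its other probe set was dim, at 18.7 on the psyllium array and 19.8 on the control array, so the bright signal was not seen by both.

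**Figure D3:**
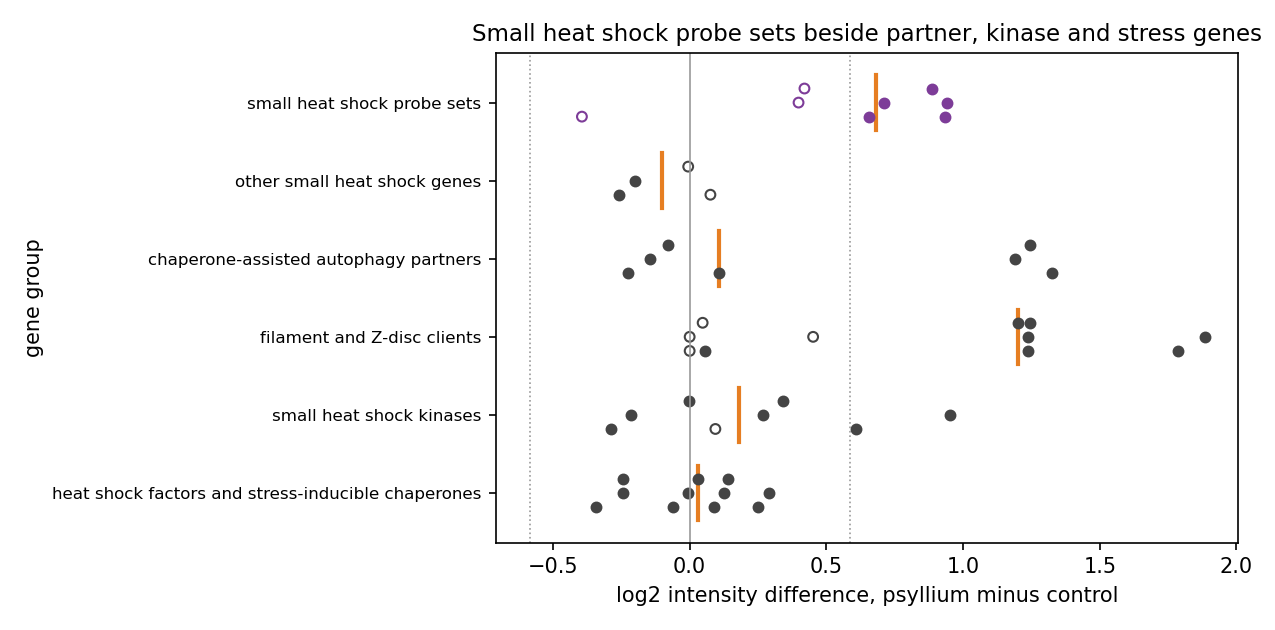
Log2 intensity difference, psyllium minus control, for the 8 small heat shock probe sets (top row) and the genes of 5 lists of relatives, partners, clients, kinases and stress chaperones. Filled points pass the intensity filter, open points do not, orange bars are medians and dotted lines mark 1.5-fold. All 11 genes of the heat shock factor and stress-inducible chaperone list lie between the dotted lines, and 6 of 11 filament and anchoring genes lie to the right of them.

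The promoter letters shown above can be set beside the differences, and a link between them was not tested. GAANNTTC stood in the windows of Hspb1, Hspb6 and Hspb8, which were higher, and in that of Hspb3, which was dim with a negative difference. The window of Hspb7, with the largest difference, held none of the motifs searched. With 5 genes this is a description only.

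The size of each difference depended mainly on how dim values were treated. Quantile normalisation, median centring and removal of the trend with intensity kept all 5 members past 1.5-fold. Adding 64 to the intensities before log2, which shrinks differences of dim probe sets, left 3 of them, Hspb6 (0.74), Cryab (0.66) and Hspb7 (0.61).

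**Figure D4:**
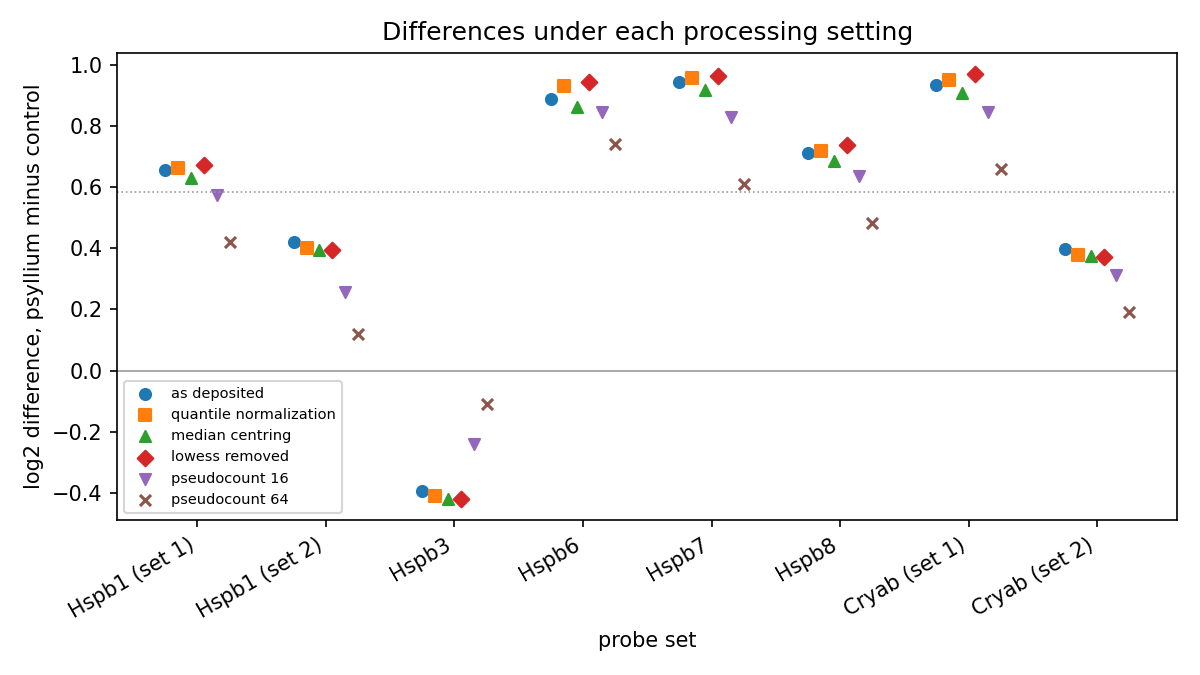
Log2 difference, psyllium minus control, of each small heat shock probe set under 6 settings, from the deposited intensities to added constants of 16 and 64 (both before log2), with 1.5-fold dotted. No probe set changed sign under any of the settings, and added constants pulled every value toward 0.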

How the data were processed

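Biotin-labelled colon RNA was run on whole-transcript arrays, per the labels' protocols. The deposited values are linear normalised intensities, 1 per probe set and array. The submitters' processing notes name RMA and Affymetrix Expression Console and give no version. Whether the intensities are RMA's output turned back from log2 is unknown here. If the arrays were equalised, only shifts relative to most transcripts can be seen. All deposited intensities were above 0 and were converted to log2 with no pseudocount. They ran from 1.76 to 13841 on the psyllium array and from 1.92 to 13675 on the control array, with medians of 49.8 and 48.9. The number of arrays, 1 per diet, limits the precision, and no test was possible.

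Probe sets took their gene names from the platform annotation in GEO. Of 41345, 23521 named 1 gene, 1814 several and 16010 none here. Symbols were updated by gene number in a RefSeq table of GRCm38.p6, which held 23328 of the 23521. The files name no genome build, so probe sets have no coordinates, and promoter coordinates are those of the RefSeq table. For 22180 genes the probe set with the highest mean stood for the gene in the lists. The 17 lists hold 178 entries, of which 170 were measured. The members and lists were chosen with earlier results of these data known.

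Named genes were every member probe set and, of each list, up to 4 genes past the filter and 1.5-fold with the largest differences, or else the 2 brightest. The smooth muscle and pan-epithelial genes nearest to each member were also named. Further genes of the 5 partner lists and further marker genes, among them dim ones and Cldn4, were named after their values were seen. Alternatives were quantile normalisation, median centring, removal of a lowess trend (statsmodels 0.14.6), added constants, other filters, a 2-fold call and the mean of probe sets. The procedure was tested on simulated data.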

Additional observations from a re-analysis of the deposited data

Results flagged for a closer look

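The probe set that names both Hspb2 and Cryab stands outside the comparison, because its signal cannot be assigned to 1 gene. It was looked at again because it was brighter on the psyllium array, at 75.3, than on the control array, at 63.8. The difference was 0.24 on the log2 scale, smaller than those of the brighter (0.93) and the dimmer (0.40) Cryab probe sets. It has no replicate check.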

How the results depend on the processing

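Of 290 values recomputed under an alternative, 270 moved by less than the 0.17 between probe sets of 1 gene (for counts, by at most 1.5 times), 20 moved by more, and no member difference changed sign. The median of the autophagy partners turned to -0.03 with the mean of probe sets, and that of adipocyte genes to -0.09 on those past the filter. Prkg1 lost its 1.5-fold call under median centring and with 16 added, and Agr2 lost it under median centring. Cldn4 passed 1.5-fold downward under median centring, and Ano1 upward under quantile normalisation and trend removal. The count of member probe sets at least 1.5-fold higher was 5 with no filter, with both arrays past the filter and under quantile normalisation, median centring and trend removal. It was 4 with 16 added, 3 with 64 added and 0 at 2-fold. The added constants act on dim values by construction. No member was 1.5-fold lower under any of these. The mean of probe sets put Cryab at -0.33 from the smooth muscle median, against -0.06 by its brighter set. The smooth muscle median ranged from 0.97 to 1.04, the pan-epithelial median from -0.30 to -0.23 and the stress chaperone median from 0.0048 to 0.08. Intensities below the filter of 67.3 limit Hspb3 and the second sets of Hspb1 and Cryab. No paired analysis was possible because each diet has 1 array.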

Other observations

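The dim second probe sets of Hspb1 and Cryab can be placed beside other genes of the same kind, a comparison chosen after seeing the data. On these arrays 22 genes had a brighter probe set past the filter and at least 1.5-fold higher, and a further probe set below the filter. The brighter sets had a median difference of 0.84 and the dim ones 0.11, and in all 22 genes the signed difference of the dim set was the lower one. No dim set was 1.5-fold higher, and 1, of Msn, was 1.5-fold lower (-1.24, beside 1.23 for its brighter set; named after its value was seen). The dim sets of Hspb1 and Cryab, at 0.42 and 0.40, ranked 4 and 5 among the 22. The brighter sets were picked for being high, so a smaller value in the other set is built into this comparison in part.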
